A study of Homo sapiens with 8 samples.

Results

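The long non-coding RNA LINC00473 and 9 protein-coding genes of the cAMP and CREB response were followed over 8 Agilent arrays of thyroid cells with raised or inhibited miR-375. These were NR4A1, NR4A2, NR4A3, CREM, CREB1, PDE4B, PDE4D, SIK1 and PER1. The members were taken as every non-control probe whose gene name in the array files is one of these 10, which gave 17 probes of 50599 and 10 gene names of 36337. The genes other than LINC00473 are known CREB targets or parts of the pathway. LINC00473 and NR4A3 were chosen by their own signals on these arrays, which were higher with pre-miR-375, so the Nthy-ori 3-1 differences below are a description and carry no test. Whether the NR4A3 difference in TT cells also entered that choice is not known, so its test is given but is not independent support.

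Nthy-ori 3-1 is an immortalized line of follicular thyroid cells without a tumor origin, and TT is a line from a medullary thyroid carcinoma, the tumor of the calcitonin-producing C cells. Nthy-ori 3-1 cells received pre-miR-375 by transfection, a synthetic miRNA precursor meant to raise its level, and TT cells with antagomiR-375, an antisense inhibitor. The labels call the control cells of each line CTL, and the reagents pre-miR-CTL and antagomiR-CTL were inferred from the methods of the study. Each of the 4 groups had 2 arrays. All cells were harvested 48 h after transfection, and no group was left untransfected. The labels give 5 nM for the precursor and 20 nM for the antagomiR, whereas the methods give 50 and 200 nM. The labels also name polyA RNA and the methods total RNA. RNA integrity was scored 8 in the TT control samples but 9 elsewhere, so in TT cells this number and the treatment cannot be told apart. The methods speak of biological replicates, and the labels call the arrays titled replicate 2 in TT cells replicate 3 in other fields. The treated and the control array of equal number in a line shared a slide and were compared as a pair.

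The lines were checked by markers. On TT control arrays the C cell markers CALCA, CHGA, RET, SYP and CEACAM5 were well above background, with a mean log2 signal of 18.55 for CALCA, the calcitonin gene. Nthy-ori 3-1 control cells had the follicular transcription factors PAX8 at 10.68 and FOXE1 at 8.76. Their probes for NKX2-1 and for the TSH receptor gene TSHR were not well above background, and TSHR was not so on any of the 8 arrays. Of the 7 follicular markers on the array, 4 and 5 were well above background on the Nthy-ori 3-1 control arrays. On each TT control array 5 were, NKX2-1 among them at a mean of 12.28, so the count did not separate the lines. The follicular label therefore rests on PAX8 and FOXE1 here, with no measured TSH receptor. In bulk RNA, fewer cells that express a gene and less RNA per cell cannot be told apart.

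Cyclic AMP is made by adenylyl cyclases under Gs-coupled receptors such as the TSH receptor and is broken down by phosphodiesterases. It frees the catalytic subunits of protein kinase A (PKA), which phosphorylate the transcription factor CREB and, by inhibiting the SIK kinases, let the CRTC coactivators enter the nucleus. CREB binds the cAMP response element (CRE) in the promoters of early response genes, some of whose products, among them SIK1, PDE4 enzymes and short CREM forms, damp the signal again. In the thyroid this route carries the TSH signal to growth and hormone synthesis.

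The miRNA that was raised or inhibited is shown with its seed, bases 2 to 8, in capitals, since that stretch pairs with target mRNAs. Its sequence and position (GRCh38.p14, chr2:219001648-219001669, minus strand) are from RefSeq.

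hsa-miR-375-3p: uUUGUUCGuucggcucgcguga

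LINC00473 was read by 2 probes, which were made for different transcript variants and are shown because their signals differed. The probe for variant 1, A_32_P8546, lies at hg19 chr6:166353150-166353209 and the probe for variant 2, A_33_P3394272, at hg19 chr6:166337536-166337595, both on the minus strand, per the array files.

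A_32_P8546: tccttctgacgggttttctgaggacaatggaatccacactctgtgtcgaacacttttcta
A_33_P3394272: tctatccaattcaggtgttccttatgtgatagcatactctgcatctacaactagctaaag

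The promoters of the members were searched for the palindromic CRE, TGACGTCA, and for its core, TGACG, on both strands (written CGTCA where it lies on the other strand). Each complete CRE holds the core on both strands, so these counts overlap. The RefSeq table of GRCh38.p14 gave 300 bases per start, 250 before and 50 after it. It matched 9 of the 10 members with 28 starts, and NR4A2 was not among them. The core was in at least 1 promoter of 5 members, LINC00473, NR4A3, CREM, SIK1 and PDE4D, and at 7 of the 28 starts, against 24.6% of the 35116 starts in the table. At any start, the core was in 28.4% of the 27305 genes in the table. The complete motif was at 2 starts, both of CREM, against 1.85% of all starts and 2.25% of all genes. The windows of these 2 starts overlap and hold the same site, which is thus counted at both, also among the 7. At least 3 cores were at 2 starts, those of NR4A3 and SIK1, against 1.40% of all starts. A match is a run of letters and not a measured binding site.

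The stretches with the matches are printed 5′ to 3′ on the gene's strand, with the matches in capitals, for the members with the most matches and for LINC00473. The LINC00473 stretch is chr6:165988110-165988219 and runs from 180 to 71 bases before the start. That of NR4A3 is chr9:99821765-99821874, 120 to 11 bases before it. That of CREM is chr10:35195822-35195881, 80 to 21 bases before the last listed of its starts. That of SIK1 is chr21:43427242-43427361, 230 to 111 bases before its start.

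LINC00473 promoter: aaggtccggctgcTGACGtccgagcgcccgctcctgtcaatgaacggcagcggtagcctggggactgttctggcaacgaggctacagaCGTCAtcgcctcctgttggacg
NR4A3 promoter: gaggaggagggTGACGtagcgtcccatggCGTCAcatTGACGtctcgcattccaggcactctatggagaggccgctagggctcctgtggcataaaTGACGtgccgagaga
CREM promoter: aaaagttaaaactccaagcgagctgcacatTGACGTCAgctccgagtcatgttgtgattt
SIK1 promoter: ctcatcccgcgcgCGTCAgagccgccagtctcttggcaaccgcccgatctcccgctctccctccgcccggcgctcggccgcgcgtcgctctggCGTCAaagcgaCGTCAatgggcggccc

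Of these 4 genes, LINC00473 and NR4A3 were at least 1 higher on the log2 scale in both Nthy-ori 3-1 pairs, whereas SIK1 and CREM, with 3 cores and with the complete motif, were not. In the LINC00473 promoter the cores lay 167 and 92 bases before the start. In the NR4A3 promoter they lay 109, 91, 83 and 25 bases before it.

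Signals below are normalized log2 signals, and a difference of 1 is a factor of 2 between arrays for the same probe. Levels of different probes are not compared. A probe was read as measured on an array where Feature Extraction marked it well above background, for which the lowest normalized signal was 3.44 to 4.52 over the arrays. Of the 17 member probes, 9 were well above background on all 8 arrays. On both arrays of at least 1 group, 11 probes were so in Nthy-ori 3-1 cells and 12 among the TT arrays. By brightest probe, 9 of the 10 genes were so in Nthy-ori 3-1 cells, all but NR4A1, and 7 in TT cells, all but LINC00473, NR4A1 and PDE4B.

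In Nthy-ori 3-1 cells, LINC00473 and NR4A3 were at least 1 higher with pre-miR-375 in both pairs by their brightest probe, and no member was at least 1 lower. Over all gene names 1.49% were that much higher and 1.91% that much lower. Among the gene names well above background in at least 1 group, 1.55% and 2.5% were. As this comparison chose the members, nothing is read from the 2 of 10. At any size, 6 members were higher in both pairs, beside 32.5% of all gene names, and 2, CREM and SIK1, were lower, beside 27.8%. The 6 include NR4A1, which was too dim to compare. The median difference of the 10 members was 0.46, beside 0.00 over all gene names.

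**Figure D1:**
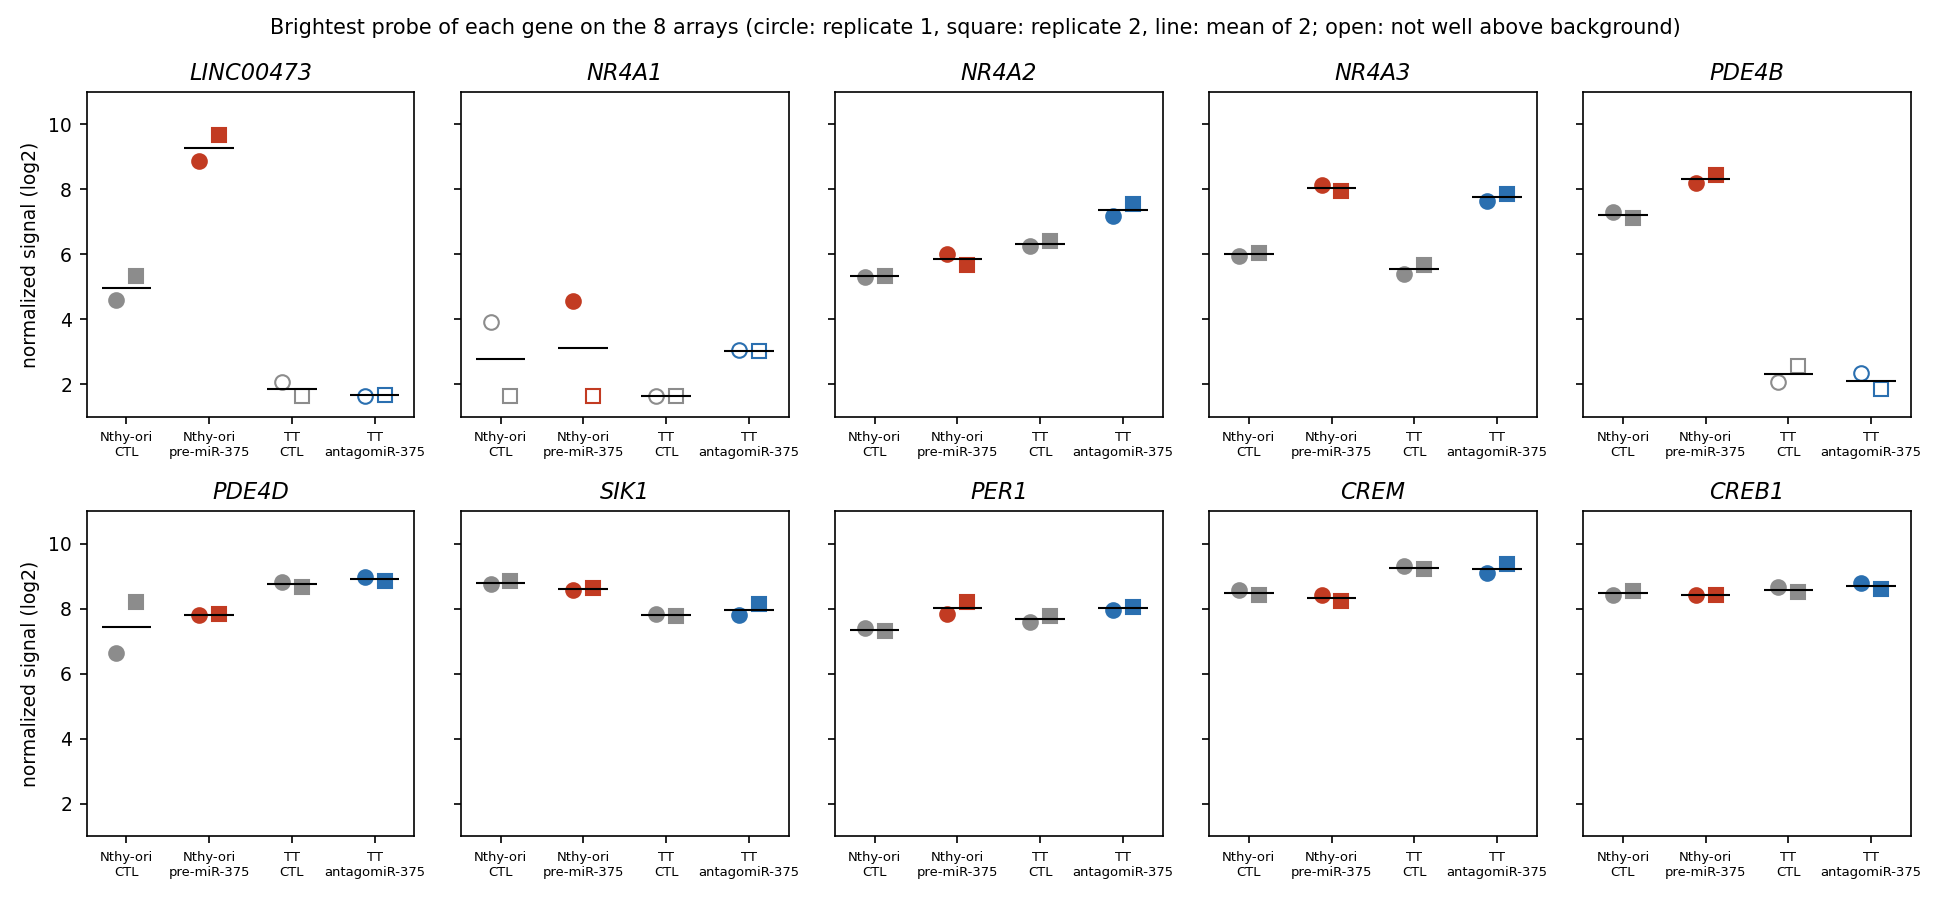
Normalized log2 signal (y axis) of the brightest probe of each of the 10 genes in the 4 groups (x axis), with circles for replicate 1, squares for replicate 2, lines for the mean of 2 and open symbols for spots not well above background. LINC00473 lies at 8.88 and 9.66 with pre-miR-375 and at 4.59 and 5.34 in its control, and NR4A3 is the gene whose treated arrays lie above the control arrays by over 1.9 in each line.

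LINC00473 had the highest difference of the group. Its variant 1 probe was at 4.59 and 5.34 in Nthy-ori 3-1 control cells and at 8.88 and 9.66 with pre-miR-375, well above background on all 4. The groups did not overlap, and the higher array of each group was replicate 2. The pair differences were 4.29 and 4.33, a mean of 4.31 or 19.8-fold. LINC00473 was chosen by this rise, so its size is a description. The control signals were near the lowest well-above-background signals of their arrays, 4.32 for replicate 1 and 4.40 for replicate 2. With the median signal without background correction, the difference was 3.23, and with the log2 values the authors deposited it was 3.31. These settings differ in the signal or the normalization too, and the cause was not tested. Both pairs stayed past 1 in each.

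The variant 2 probe of LINC00473 was at 2.09 and 2.14 on the control arrays, not well above background, and at 4.91 and 5.26 with pre-miR-375, where only replicate 2 was marked as measured. As the control is a bound, the signal was at least 1.66-fold higher with pre-miR-375. Its pair differences of 2.82 and 3.12 went the same way as those of the variant 1 probe. In TT cells no spot of either LINC00473 probe was well above background, with signals of 1.65 to 2.06 for variant 1 and 1.95 to 2.11 for variant 2, so no difference with antagomiR-375 was measurable there.

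LINC00473 lies inside the span that RefSeq gives to PDE10A, a phosphodiesterase that cleaves cAMP and cGMP, on the same strand (GRCh38.p14, chr6:165924048-165988039 within chr6:165327289-165988052). The ends next to their starts are 13 bases apart. The brightest PDE10A probe was at 5.60 and 6.38 on the control arrays and at 4.24 and 4.75 with pre-miR-375, where 1 of the 2 arrays was marked as measured. PDE10A was thus lower in both pairs, by -1.36 and -1.63, while the RNA within its span was higher. In TT cells PDE10A was not well above background either.

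The NR4A genes encode orphan nuclear receptors of the early response, transcription factors that act without a known ligand. NR4A3 was measured by A_23_P398566 on all 8 arrays. It was at 5.96 and 6.05 in Nthy-ori 3-1 control cells and at 8.15 and 7.96 with pre-miR-375. The pair differences were 2.18 and 1.91, a mean of 2.05 or 4.14-fold, and the groups were apart by far more than the spread within each. With the deposited values the mean was 1.52.

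In TT cells NR4A3 was at 5.39 and 5.69 on the control arrays and at 7.65 and 7.87 with antagomiR-375. The pair differences of 2.26 and 2.18 gave a mean of 2.22 (SE 0.09) or 4.65-fold, higher in 2 of 2 pairs. The limma adjusted p was 0.512 and ran from 0.0491 to 0.571 over the alternatives, so only with the median signal without background correction did NR4A3 pass the threshold. NR4A3 was therefore higher both with pre-miR-375 and with antagomiR-375, each in its own line. The other NR4A3 probe, A_23_P306867 for variant 4, was well above background only on replicate 2 with pre-miR-375, at 4.88. Its remaining 7 spots were between 1.90 and 2.55.

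NR4A2 had 2 probes that differed in what they measured in Nthy-ori 3-1 cells. A_33_P3299066 was at 5.31 and 5.34 in control cells and at 6.02 and 5.68 with pre-miR-375, differences of 0.71 and 0.33. A_23_P131208 was at 1.98 and 2.55 in control cells, not well above background, and at 4.64 and 4.70 with pre-miR-375, where only replicate 2 was marked as measured. Both probes were higher in both pairs, but the second only gives at least 1.24-fold, and the first was below a difference of 1.

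In TT cells both NR4A2 probes were well above background on all 4 arrays. A_33_P3299066 was at 6.25 and 6.40 in control cells and at 7.19 and 7.54 with antagomiR-375, a mean difference of 1.04 (SE 0.11, limma adjusted p = 0.512). A_23_P131208 was at 5.82 and 5.50 in control cells and at 7.07 and 7.24 with antagomiR-375, a mean difference of 1.49 (SE 0.19, limma adjusted p = 0.512). The groups did not overlap for either probe, and neither difference passed the threshold. With the deposited values they were 0.67 and 0.84.

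NR4A1 was too dim to compare. Its probe A_33_P3319791 was marked as measured only on replicate 1 with pre-miR-375, at 4.57. The Nthy-ori 3-1 control arrays were at 3.93 and 1.65, and the other pre-miR-375 array at 1.65. In TT cells it was at 1.65 on both control arrays and at 3.04 and 3.02 with antagomiR-375, all not well above background, so no fold is given. The difference of 1.38 there shrank to 0.28 with the deposited values.

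Over the TT comparison as a whole, limma called 0% of the 50599 probes at an adjusted p of at most 0.05, while 9.72% had an unadjusted p under 0.05. The 17 member probes held 4 of the latter, those of NR4A1 and NR4A2 and the brighter NR4A3 probe. By brightest probe, NR4A1, NR4A2 and NR4A3 were at least 0.6 higher in both pairs, which is 3 of 10 beside 2.44% of all gene names, and no member was at least 0.6 lower beside 1.97%. With normexp the count higher was 1, and as NR4A3 was chosen on these arrays, nothing is read from it. Among gene names well above background in at least 1 TT group the shares were 2.34% higher and 1.44% lower. NR4A1 is among the 3 although it was not well above background. At any size 6 members were higher in both TT pairs, NR4A1 among them, and 0 were lower, beside 31.2% and 30.9% of all gene names. The median difference was 0.16 beside -0.00 over all gene names. With 2 arrays against 2 and the pairing ignored, an exact two-sided permutation test cannot go below p = 0.333. A permutation test that keeps the 2 pairs has fewer arrangements and a higher limit.

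**Figure D2:**
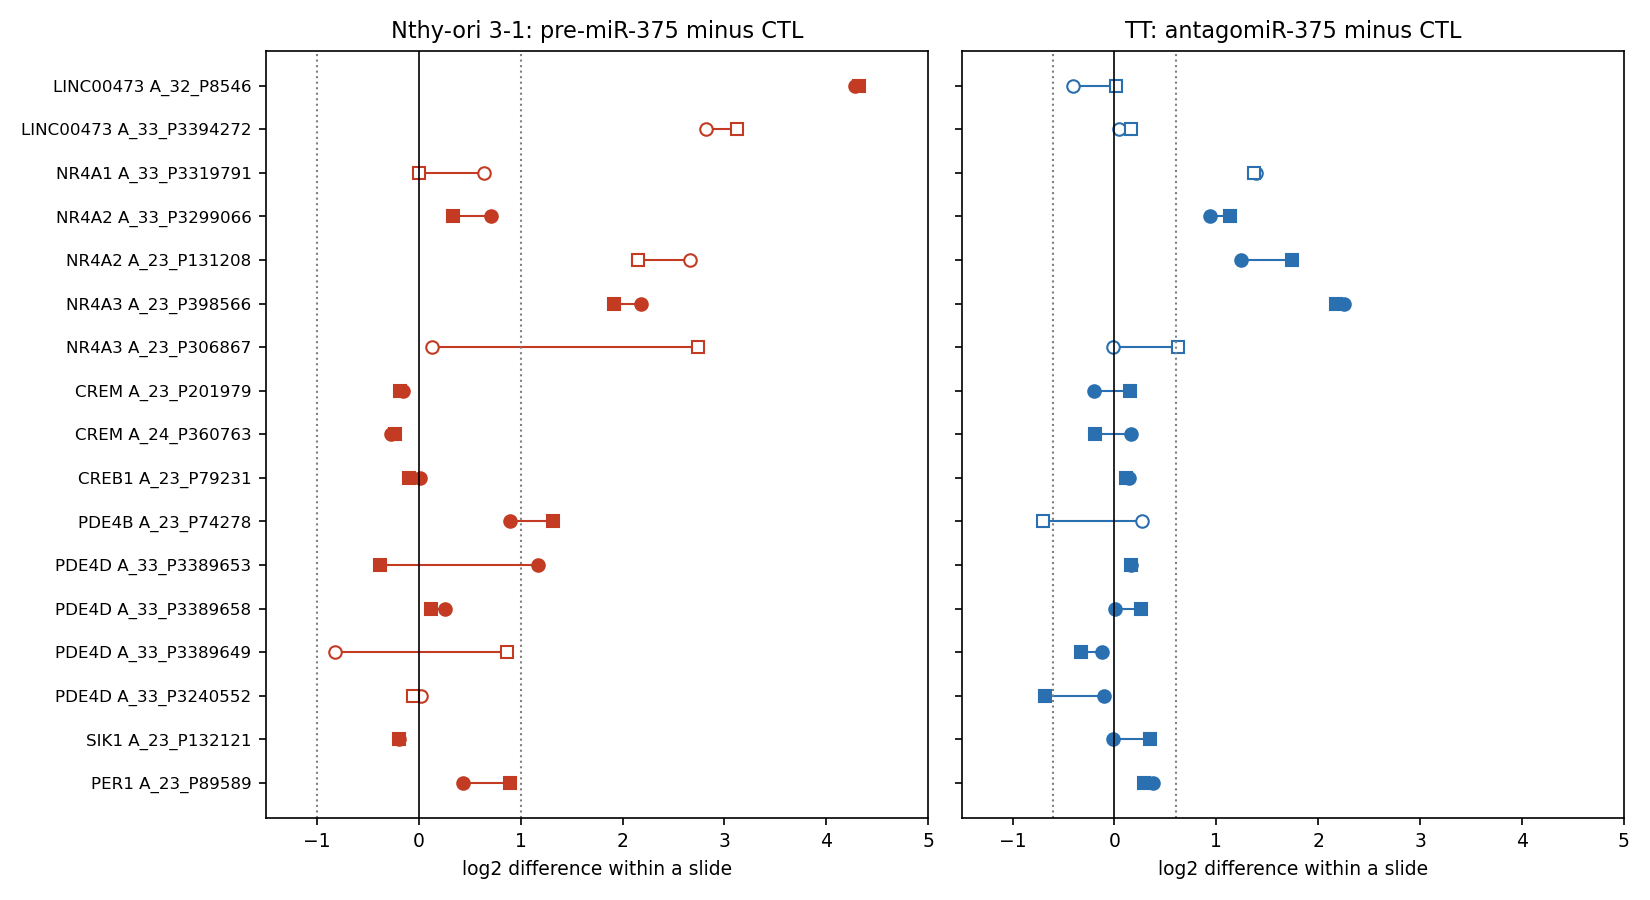
Log2 difference between the treated and the control array of each slide (x axis) for the 17 member probes (y axis), with circles for replicate 1, squares for replicate 2 and open symbols where neither group of the line was well above background on both arrays. Dotted lines mark the differences of 1 in Nthy-ori 3-1 and 0.6 in TT cells, which the brighter probe of NR4A3 passes in all 4 pairs and the variant 1 probe of LINC00473 in both Nthy-ori 3-1 pairs.

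The phosphodiesterases PDE4B and PDE4D hydrolyze cAMP, and PKA signalling is known to induce some of their forms. PDE4B was at 7.31 and 7.12 in Nthy-ori 3-1 control cells and at 8.21 and 8.44 with pre-miR-375. The pair differences of 0.89 and 1.32 gave a mean of 1.11 or 2.15-fold, with no overlap between groups, and replicate 1 stayed under 1. In TT cells the probe was at 1.85 to 2.55, not well above background on any array.

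PDE4D had 4 probes, and none was past the thresholds in both pairs of either line. The brightest, A_33_P3389653, was at 6.64 and 8.21 in Nthy-ori 3-1 control cells and at 7.81 and 7.83 with pre-miR-375, so its pair differences of 1.17 and -0.38 had opposite signs. A_33_P3389658 was at 5.74 and 5.89 in control cells and at 5.99 and 6.01 with pre-miR-375. In TT cells the mean differences of the 4 probes ran from -0.39 to 0.16, with limma adjusted p of 0.62 to 0.709.

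SIK1 is a salt-inducible kinase that holds the CRTC coactivators in the cytoplasm and is itself a CREB target. Its probe was at 8.76 and 8.84 in Nthy-ori 3-1 control cells and at 8.56 and 8.65 with pre-miR-375. The pair differences of -0.20 and -0.19 were small, and the groups did not overlap. In TT cells it was at 7.83 and 7.79 in control cells and at 7.82 and 8.13 with antagomiR-375, with overlap. SIK1 has a near-identical annotated copy in newer genome builds, and the probe may read both.

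PER1, a clock gene that CREB induces, was at 7.40 and 7.31 in Nthy-ori 3-1 control cells and at 7.83 and 8.21 with pre-miR-375. The pair differences were 0.43 and 0.90, or 1.59-fold for the mean of 0.67. In TT cells PER1 was at 7.59 and 7.76 in control cells and at 7.97 and 8.05 with antagomiR-375, a mean difference of 0.33 (SE 0.09, limma adjusted p = 0.514). PER1 was higher in all 4 pairs without overlap of the groups, by less than the thresholds.

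The transcription factor genes CREB1 and CREM were past the threshold in neither line. CREB1 was at 8.41 and 8.53 in Nthy-ori 3-1 control cells and at 8.42 and 8.43 with pre-miR-375. In TT cells CREB1 was at 8.67 and 8.51 in control cells and at 8.80 and 8.62 with antagomiR-375. The mean differences of -0.04 and 0.12 were no larger than the gap between the control arrays of the line.

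CREM encodes both activators and, from an internal promoter, the repressor ICER. Its brighter probe A_23_P201979 was at 8.58 and 8.41 in Nthy-ori 3-1 control cells and at 8.43 and 8.23 with pre-miR-375. In TT cells this probe was at 9.30 and 9.21 in control cells and at 9.11 and 9.37 with antagomiR-375. The other probe, A_24_P360763, was lower by -0.27 and -0.23 in the Nthy-ori 3-1 pairs, and its mean difference in TT cells was -0.01. Which of the probes reads ICER was not tested.

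Between the control groups of the lines, 6 of the 17 member probes were called. The groups were compared with limma, and probes were called at an adjusted p of at most 0.05 and a difference of at least 1. Of all probes, 11.6% were called higher in TT and 11.4% higher in Nthy-ori 3-1 cells, and 37.6% had an unadjusted p under 0.05. Of the 17 member probes, 4 were called higher in TT, both of NR4A2 and those of 2 PDE4D forms, and 2 higher in Nthy-ori 3-1 cells, PDE4B and the variant 1 probe of LINC00473. The 2 of 17 higher in Nthy-ori 3-1 are about the share over all probes. The line, the control reagent, its dose, the slide and the RNA integrity number, 8 in TT and 9 in Nthy-ori 3-1 controls, cannot be told apart here. Without replicate 1 of the TT controls no probe of the 50590 fitted was called, though 14278 had an unadjusted p under 0.05, and without replicate 2 there were 1582 calls, 2 of them members. In these fits the remaining TT array is assumed to vary like the Nthy-ori 3-1 controls, which alone give the spread. The fitted differences moved little, for PDE4B to -4.67 and -5.14 (limma adjusted p = 0.0508 and 0.0490), and for the variant 1 probe of LINC00473 to -3.31 and -2.90.

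PDE4B had the widest gap, with control means of 7.22 ± 0.14 in Nthy-ori 3-1 and 2.31 ± 0.33 in TT cells (SD, n = 2). As the TT signal was not well above background, PDE4B was at least 12.3-fold higher in Nthy-ori 3-1 cells (limma adjusted p = 0.00346). The variant 1 probe of LINC00473 had control means of 4.97 ± 0.53 and 1.86 ± 0.29, at least 2.58-fold higher in Nthy-ori 3-1 cells (limma adjusted p = 0.0159). These bounds are under the fitted differences of -4.90 and -3.11 because the dimmer side was at background. With the median signal without background correction, which changes both the signal and the correction, they were -1.88 and -0.71.

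All 4 PDE4D probes were higher in TT control cells, and 2 of them were called. The 2 probes with the lowest coordinates, A_33_P3389653 at hg19 chr5:58264927-58264986 and A_33_P3389658 at chr5:58270554-58270613, were well above background on all arrays of both lines. They were 2.50-fold and 2.14-fold higher in TT control cells, with limma adjusted p of 0.253 and 0.0504, and so not called. The probe for variant 4, A_33_P3389649 at chr5:59064074-59064133, was at 6.53 and 6.28 in TT and at 4.02 and 3.82 in Nthy-ori 3-1 control cells. The probe for the Ensembl transcript, A_33_P3240552 at chr5:59284034-59284093, was at 5.81 and 6.06 in TT and at 1.88 and 1.87 in Nthy-ori 3-1 control cells. As the gene is on the minus strand, these higher coordinates lie toward its upstream end.

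The variant 4 probe was at least 4.14-fold higher in TT control cells (limma adjusted p = 0.00641). The Ensembl transcript probe was at least 2.98-fold higher (limma adjusted p = 0.00238). Neither was well above background on any Nthy-ori 3-1 control array, while all 4 probes were on both TT control arrays. Whether the difference between the lines itself differed among the transcript forms was not tested. That of A_33_P3389653 ran from 0.54 to 2.10 over the alternatives.

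NR4A2 was higher in TT control cells by both probes. A_33_P3299066, measured in both lines, was 2.002-fold higher (log2 SE 0.13, limma adjusted p = 0.021). This was at the threshold, and the call ended with normexp, where the difference was 0.46, and when either array of a group was left out, with adjusted p of 0.0634 to 0.127. A_23_P131208 was at least 2.46-fold higher (limma adjusted p = 0.00886). SIK1 was lower in TT by -0.99 (SE 0.12, limma adjusted p = 0.0183), just short of the fold needed for a call. The brighter CREM probe was 0.76 higher in TT (SE 0.14, limma adjusted p = 0.0421), also under that fold.

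NR4A3 differed between the control groups by -0.47 (SE 0.17, limma adjusted p = 0.157), PER1 by 0.32 (SE 0.14, limma adjusted p = 0.214) and CREB1 by 0.12 (SE 0.14, limma adjusted p = 0.627). None of these passed the threshold. For NR4A1 no comparison is given, as both control groups were not well above background.

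**Figure D3:**
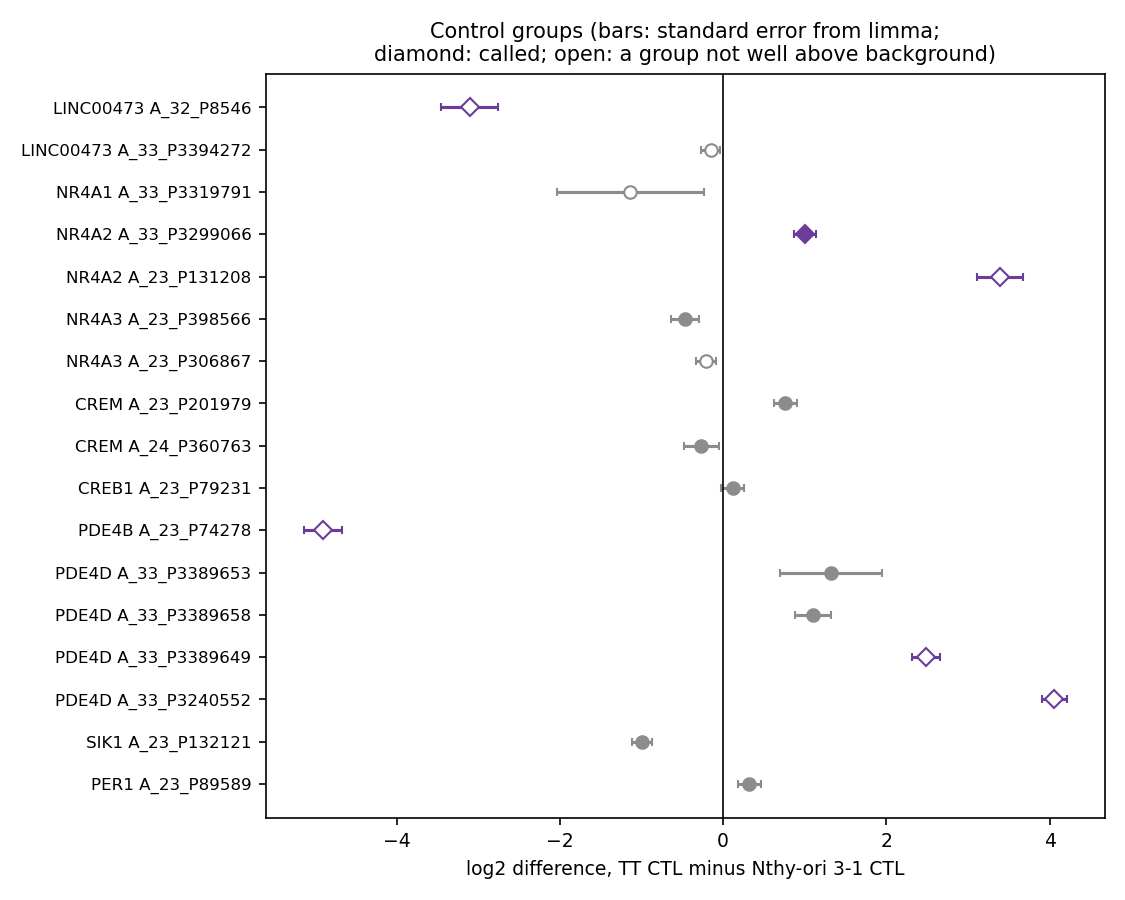
Log2 difference between the TT and the Nthy-ori 3-1 control arrays (x axis, positive where TT is higher) for the 17 member probes (y axis), with bars for the standard error from limma, diamonds for called probes and open symbols where a group was not well above background on both arrays. The called probes are PDE4B and LINC00473 variant 1 on the left and those of NR4A2 and of 2 PDE4D forms on the right, and the NR4A2 probe A_33_P3299066 is the only called one that was measured in both lines.

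Other genes of the pathway were taken from lists of 76 genes, by the brightest probe of each. They held adenylyl cyclases and Gs, PKA subunits and inhibitors, EPAC exchange factors, other phosphodiesterases, the CREB family with its coactivators and SIK kinases, other CREB targets, and receptors that raise cAMP in the thyroid or C cell. All 76 were on the array, 52 of them well above background on both arrays of at least 1 Nthy-ori 3-1 group and 54 on those of a TT group. Their median difference was -0.00 with pre-miR-375 and 0.16 with antagomiR-375. For the 21 other CREB targets alone the medians were -0.16 and 0.37. Over those well above background on both arrays of a group, 14 in Nthy-ori 3-1 and 15 in TT cells, they were -0.45 and 0.40.

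In Nthy-ori 3-1 cells 5 of the 76 were at least 1 higher with pre-miR-375 in both pairs, beside 1.49% of all gene names, and 3 at least 1 lower, beside 1.91%. The adenylyl cyclase ADCY1 was at 6.34 and 6.67 in control cells and at 7.96 and 8.36 with pre-miR-375. Among the CREB targets, the granule protein gene SCG2 was at 2.10 and 4.62 in control cells, not well above background, and at 6.72 and 8.42 with pre-miR-375, at least 8.60-fold higher. VGF, a neuropeptide precursor gene, was at 12.26 and 12.63 in control cells and at 14.02 and 14.50 with pre-miR-375.

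The other higher genes were PDE8B, a phosphodiesterase specific to cAMP, with differences of 1.55 and 1.06, and the calcitonin receptor gene CALCR. CALCR was not well above background in control cells and was at 4.13 and 6.36 with pre-miR-375, where 1 of 2 arrays was marked as measured. The lower genes were the phosphodiesterases PDE10A and PDE1C and the insulin receptor substrate gene IRS2. PDE1C was at 8.54 and 9.19 in control cells and at 6.74 and 7.31 with pre-miR-375, and IRS2 was lower by -1.33 in each pair. No gene of the CREB family, coactivator and SIK list and no PKA gene was past 1 in both pairs in either direction.

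In TT cells 7 of the 76 were at least 0.6 higher with antagomiR-375 in both pairs, beside 2.44% of all gene names, and 0 at least 0.6 lower, beside 1.97%. None was called by limma. Among the CREB targets these were early response transcription factors. ATF3 was at 9.19 and 9.36 in control cells and at 11.12 and 11.70 with antagomiR-375 (limma adjusted p = 0.512). FOS was at 6.37 and 6.39 in control cells and at 7.85 and 8.11 with antagomiR-375. FOSB was at 3.65 and 3.80 and then at 5.32 and 5.55. In each of the 3 the groups did not overlap, as for NR4A3 and NR4A2. These 3 were named for passing 0.6 in both pairs. EGR1 and JUNB, early response factors of the same list, did not pass, with differences of -0.10 and -0.01 and of 0.49 and 0.47. The share of all gene names without overlap was not counted, so nothing is read from overlap, here or for the members above.

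PKIA, an inhibitor of PKA, was at 10.40 and 10.26 in TT control cells and at 11.59 and 11.82 with antagomiR-375. The phosphodiesterases PDE4A, with differences of 1.20 and 0.99, and PDE2A, with 0.72 and 0.67, were also higher. VIPR1, a receptor for vasoactive intestinal peptide, is counted among the 7 although it was not well above background on any TT array. With pre-miR-375 in the other line none of these genes was at least 1 higher in both pairs, as NR4A3 was. ATF3 was lower there by -0.52 and -0.50, FOSB by -1.12 and -0.45 and PDE4A by -0.57 and -0.32. FOS was higher by 0.17 and 0.43, PDE2A by 0.31 and 0.40 and PKIA by 0.04 and 0.11.

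**Figure D4:**
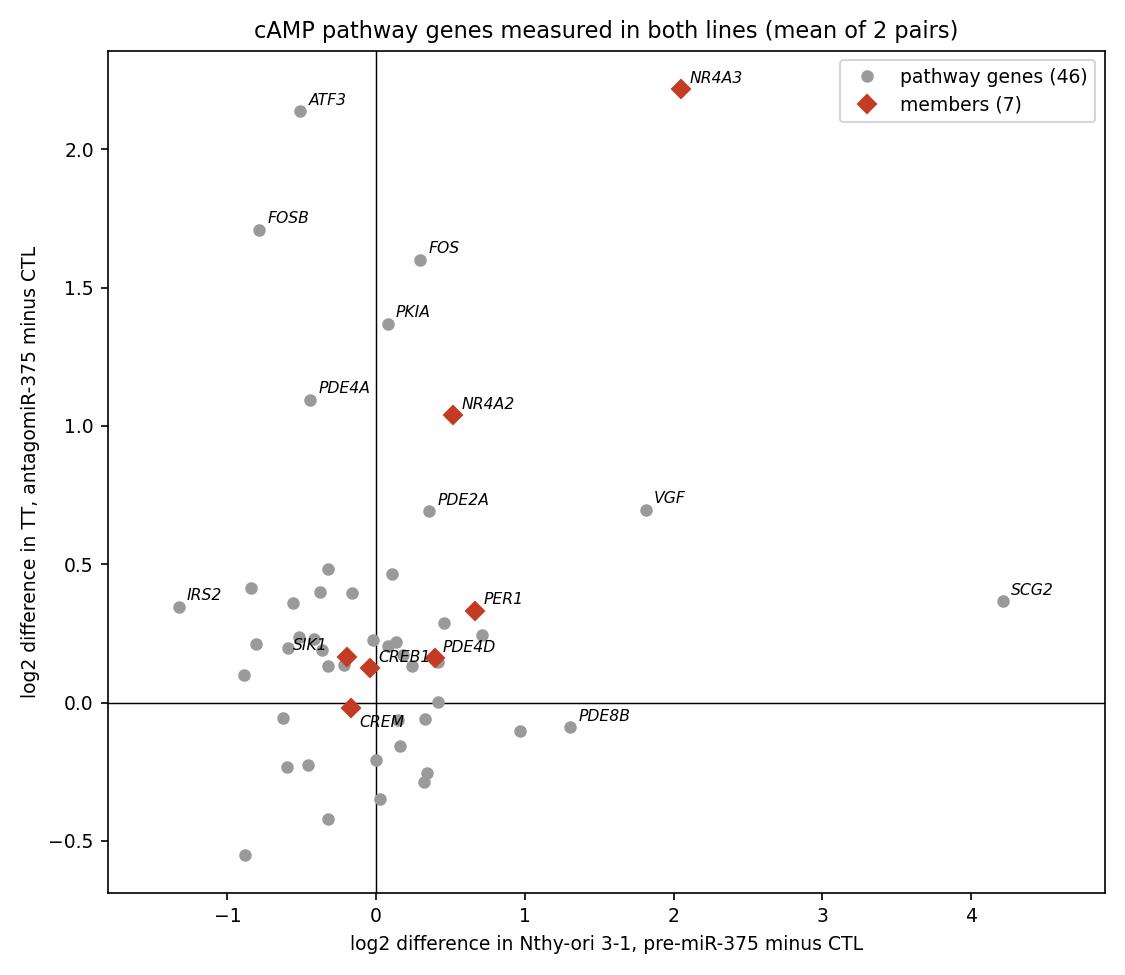
Mean log2 difference of 2 pairs in Nthy-ori 3-1 cells (x axis) against that in TT cells (y axis) for the 46 pathway genes (grey) and 7 members (red) whose brightest probe was well above background on both arrays of at least 1 group in each line. Names are given for members and for pathway genes past the thresholds, and NR4A3 stands alone at about 2 on both axes, with SCG2 and VGF to the right and ATF3, FOSB and FOS at the top.

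Between the control groups 19 of the 76 genes were called higher in TT and 14 higher in Nthy-ori 3-1 cells. Of all probes, 11.6% and 11.4% were, but the share by gene name was not computed, so nothing is read from these counts. By fitted difference, as the rule for naming has it, the first 3 of those higher in TT were SST, the somatostatin gene and a classic CREB target, CGA, which encodes the shared subunit of glycoprotein hormones, and RGS2, a regulator of G protein signalling. SST was at 17.45 and 17.50 in TT and at 1.67 and 1.69 in Nthy-ori 3-1 control cells, at least 8863-fold higher (limma adjusted p = 0.00125). CGA was at least 23.4-fold higher, and RGS2, measured in both lines, was 80.2-fold higher. Where a line was not well above background, no order is read. SCG2 at least 32.8-fold and ADCY5 at least 24.3-fold higher had bounds above that of CGA.

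By the same rule, the first 3 of those higher in Nthy-ori 3-1 cells were BDNF, a neurotrophin gene, PDE1C and AREG, which encodes an EGF receptor ligand. All 3 were not well above background in TT cells. BDNF was at least 86.8-fold, PDE1C at least 38.4-fold and AREG at least 10.2-fold higher in Nthy-ori 3-1 cells. PTGER4, a prostaglandin receptor gene, had a bound of 17.1-fold, and PDE4A, measured in both lines, was 13.1-fold higher.

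Beside LINC00473, some markers of the C cell were higher with pre-miR-375 in the follicular line. Of 5 such markers used here, 1 was well above background on each control array and 4 on each pre-miR-375 array. The synaptic vesicle gene SYP was at 1.91 and 2.11 in control cells and at 5.49 and 6.15 with pre-miR-375. CHGA, which encodes a granule protein, was at 3.46 and 2.09 and then at 4.91 and 5.13. The brightest CALCA probe was at 3.91 and 3.57 and then at 8.12 and 4.51. RET, which encodes a receptor kinase, was lower in both pairs, at 6.37 and 5.83 in control cells and at 6.19 and 5.50 with pre-miR-375. CEACAM5 was not well above background on any array of this line.

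The summed linear signal of the 5 was 81.2 to 117 on the control arrays and 180.0 to 431 with pre-miR-375, against 488476 to 543985 on the TT control arrays. The sum adds different probes, so it is only a description. Its largest part was RET on the Nthy-ori 3-1 control arrays and the CALCA spot at 8.12 on replicate 1 with pre-miR-375. Some other genes that are high in TT cells were not well above background with pre-miR-375. SST was at 1.67 on both arrays and NKX2-1 at 1.93 and 1.94. The 2 remaining CALCA probes were not well above background on any Nthy-ori 3-1 array. The part of these markers in the LINC00473 difference was not tested.

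The genes most like LINC00473 and NR4A3 were found by the root mean square distance over the 4 pair differences, with signals under the lowest measured one raised to it, over 36337 gene names. The 5 nearest to LINC00473 were BSN at 0.83, PLSCR4 at 0.96, SCG2 at 1.003, KCNC1 at 1.004 and METTL7A at 1.09. Each was higher in both Nthy-ori 3-1 pairs, by 2.40 to 3.81 after that floor, and within 0.49 of no difference in the TT pairs. LINC00473 was not measured in TT cells, so its TT values in this distance are only differences between the floors of the arrays. BSN, SCG2 and KCNC1, in contrast, were well above background on every TT array, so no likeness in TT cells is read. BSN, which encodes a presynaptic scaffold protein, was at 4.66 and 4.84 in control cells and at 8.03 and 7.83 with pre-miR-375.

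The 5 nearest to NR4A3 were IFITM1 at 0.49, TGFB3 at 0.98, PVRL2 at 1.01, BDKRB2 at 1.03 and GABRE at 1.06. IFITM1, an interferon-induced membrane protein gene, was higher by 1.78 and 1.31 in the Nthy-ori 3-1 pairs and by 1.71 and 1.82 in the TT pairs. As the lists were ranked on these same differences, the likeness is a description and has no test.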

How the data were processed

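RNA of 8 samples was hybridized to 1-colour Agilent SurePrint arrays, scanned and read by Feature Extraction. Per the file headers, the authors deposited for each array spot-level intensity values (processed, mean and median signal, local background), not normalized between arrays. They also deposited a table of log2 values, read here from its values as log2 median signal quantile normalized within each line. Per the labels, limma was used.

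Here, the control spots among the 62976 of each array were dropped, as were outlier spots, 341 to 428 of the other 58717 per array. The log2 processed intensity was quantile normalized over the 8 arrays, with spots of a probe averaged. limma 3.58.1 (R 4.3.3) fitted TT cells with the replicate number, which is the slide, as a block, and the control groups without it, with Benjamini-Hochberg adjustment over all probes. Samples of equal number share a slide, and their deviations correlated at 0.80 in Nthy-ori 3-1 and 0.35 in TT cells over 22186 probes. With 1 residual degree of freedom in TT cells, the prior was 1.13 degrees of freedom and the smallest adjusted p was 0.512. On simulated data with 200 probes changed by a log2 of 2, the pipeline recovered the size and called 0, so changes of this size may go uncalled, and the number of arrays limits the precision. Spots well above background numbered 32071 to 37340 per array, and 0 were saturated.

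Where a group had no array with the probe well above background, "at least" folds set the brighter mean against, per array, the higher of the lowest well-above-background signal and the probe's own. The probe with the highest mean stood for a gene. Named were all member probes, pathway genes at least 1 (Nthy-ori 3-1) or 0.6 (TT) apart in both pairs, the 3 highest called control differences per direction, and the 5 nearest patterns. The members and lists were chosen with earlier results of these data known. Names are those of the array design. An item of the marker list is not reported here.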

Additional observations from a re-analysis of the deposited data

How the results depend on the processing

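The difference of LINC00473 (variant 1 probe) in Nthy-ori 3-1 cells ran from 3.04 to 4.43 over the alternatives, and that of NR4A3 from 1.44 to 2.18 there and from 1.41 to 2.26 in TT cells. The count of members at least 1 higher in Nthy-ori 3-1 cells was 2 in the setting reported and 3 without either replicate. The count at least 0.6 higher in TT cells was 3, and 1 with normexp. Probes called in TT cells were 0, and 10 on the median signal without its background subtracted, NR4A3 among them. The replicate block did not decide this, as 0 probes were called without it, 4899 having an unadjusted p under 0.05. Between controls, 11619 probes were called, 7258 with the replicate block, although controls of equal number lie on different slides, and 0 to 11377 when an array was left out. Member probes called there were 6, with 8 on the 75th percentile, 4 with the replicate block, 1 under normexp, 3 on the median signal and 0 to 7 when an array was left out, the lowest without TT_CTL replicate 1.

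Some signs turned. The variant 2 probe of LINC00473 was at -0.0195 in TT cells with normexp (0.11 reported), and between controls at 0.0376 with normexp and 0.00167 with the median signal (-0.15 reported). The brighter CREM probe was at 0.0104 in TT cells with the median signal (-0.02 reported). NR4A1 between controls, where neither group was well above background, was at -1.14 in the main setting and ran from -2.28 to 0.00114 when an array was left out, the latter without ORI_CTL replicate 1. The causes were not tested. Quantile normalization within each line and the deposited values were not run for the control groups, as the lines were then normalized separately.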
